A study of Mus musculus with 16 samples.

Results

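Tissue kallikreins were examined in Atoh1-expressing secretory cells of the mouse colon and in the remaining epithelium. They were represented by 8 genes (Klk1, Klk1b1, Klk1b3, Klk1b4, Klk1b5, Klk1b26, Klk1b27 and Klk15) of the 45513 genes in the deposited count files. The 8 genes were selected on the difference between tdTom+ and tdTom− cells in these same libraries, so their levels and fold changes are given as a description, without a test. Of the 8, 7 passed the filter on low counts that left 15841 genes for testing, and Klk1b26 did not.

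Kallikreins are secreted serine proteases of the trypsin family. Klk1, true tissue kallikrein, is known for cutting kininogens to release kinins, short peptides that act on the bradykinin receptors on neighboring cells. In the mouse the ancestral gene has expanded into a large family of Klk1b genes beside it, best known from the salivary glands, several of which were named for growth factors that they bind or process.

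The libraries came from 8 C57BL/6 mice, 8 to 16 weeks old and of either sex, all homozygous for Atoh1(WT)CreERT2, in which an inducible CreERT2 lies downstream of the intact Atoh1 coding sequence, and all carrying 1 Rosa26tdTom reporter allele. Every mouse received tamoxifen at 1 mg daily for 3 days, and live EpCAM+tdTom+ and EpCAM+tdTom− cells were sorted from the colon of each, giving 16 libraries (8 per population). A cell is labeled if it, or a cell it arose from, expressed the Atoh1-linked CreERT2 while tamoxifen was present, so that cells of other types that arose from such a cell can also be tdTom+. No library from untreated mice was analysed here. The mice are numbered 1 to 8 here.

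The libraries held 16482530 to 24218367 counts in tdTom+ cells and 18318172 to 45791503 in tdTom− cells, the largest being the tdTom− library of mouse 4. Atoh1 itself was at 132 ± 19.3 counts per 1000000 library counts (CPM; SD, n = 8) in tdTom+ cells and 5.70 ± 1.67 in tdTom− cells (log2 fold change 4.54, SE 0.15, edgeR quasi-likelihood test, adjusted p = 1.14e-15). All 8 goblet cell markers and all 6 deep crypt secretory cell markers were higher in tdTom+ cells, and all 6 absorptive markers were lower. Of 6 enteroendocrine markers 5 were lower and 1 was higher, and of 4 tuft cell markers 3 were lower. The labels' secretory population was therefore rich in goblet and deep crypt secretory cell transcripts. In such bulk samples fewer cells of a type and less RNA per cell cannot be told apart.

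Klk1 was by far the most abundant of the kallikreins and was high in the secretory cells of every mouse. Its level in tdTom+ cells ranged from 2401 to 3302 CPM with a median of 2817, and in tdTom− cells from 293 to 495 CPM with a median of 402. All 8 tdTom+ libraries lay far above all 8 tdTom− libraries, and within a mouse the ratio ran from 5.66-fold in mouse 5 to 10.1-fold in mouse 4. The means were 2849 ± 270 and 388 ± 73.9 CPM (SD, n = 8), a log2 fold change of 2.88 (SE 0.11).

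Ranked by CPM per kilobase of exon among all genes, Klk1 stood between place 8 and place 20 in the tdTom+ libraries (median 17). In tdTom− libraries it stood between place 74 and place 133. It made up 0.239% to 0.320% of all counts in tdTom+ cells and 0.0313% to 0.0501% in tdTom− cells.

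Klk1b5, the gene next to Klk1, showed the same pattern. It ranged from 295 to 385 CPM (median 354) in tdTom+ cells and from 36.3 to 58.1 CPM (median 46.1) in tdTom− cells, without overlap (log2 fold change 2.91, SE 0.10). Klk1b4 ranged from 88.2 to 129 CPM (median 108) against 10.4 to 17.7 CPM (median 14.7). Its log2 fold change was 2.90 (SE 0.11).

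Klk1b3 ranged from 73.3 to 98.5 CPM (median 85.4) in tdTom+ cells and from 10.04 to 15.9 CPM (median 11.1) in tdTom− cells. Its log2 fold change was 2.87 (SE 0.09). Klk1b27 was at 12.3 to 22.3 CPM (median 17.1) against 1.94 to 3.51 CPM (median 2.26), with a log2 fold change of 2.82 (SE 0.14). In each of these 4 genes every tdTom+ library lay above every tdTom− library, and their log2 fold changes differed from that of Klk1 by less than its own spread between mice (SD 0.34).

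Together with Klk1b1, described further on, 6 of the 7 tested kallikreins were higher in tdTom+ cells in all 8 mice without overlap of the populations. Over all 15841 genes, 15.2% lay without overlap above tdTom− cells in the same way and 15.3% below. By the edgeR test 25.5% of all genes were higher and 25.5% were lower in tdTom+ cells at an adjusted p below 0.01. The median log2 fold change was 2.88 over the 7 tested kallikreins and 0.00 over all genes tested. Since the members were chosen on this contrast, nothing is read from these shares.

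**Figure D1:**
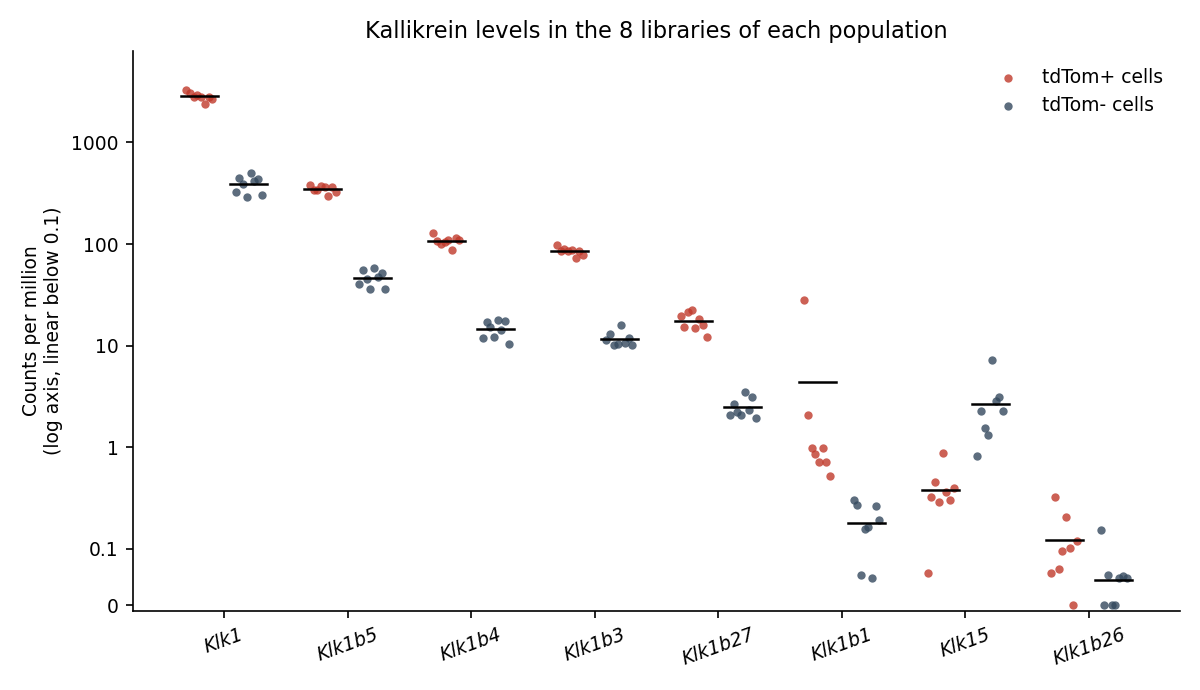
Level of each of the 8 kallikreins in CPM (log axis, linear below 0.1) in the 8 tdTom+ (red) and 8 tdTom− (dark) libraries, with 1 point per mouse in order of mouse number and a line at the mean. Klk1, Klk1b5, Klk1b4, Klk1b3, Klk1b27 and Klk1b1 lie higher in all tdTom+ libraries, Klk15 lies lower, and Klk1b26 stays below 0.4 CPM throughout.

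By level per kilobase of exon in tdTom+ cells, the order was Klk1 (3253 CPM per kb), Klk1b5 (405), Klk1b4 (129), Klk1b3 (96.2), Klk1b27 (19.8), Klk1b1 (4.99), Klk15 (0.497) and Klk1b26 (0.139). Klk1 and Klk1b5 stood apart from their neighbors in this order without overlap. The ranges of Klk1b4 and Klk1b3 overlapped, but Klk1b4 was the higher of the pair in 8 of 8 libraries. The ranges of Klk1b27 and Klk1b1, of Klk1b1 and Klk15, and of Klk15 and Klk1b26 overlapped too, and the mean of Klk1b1 rested on mouse 1. In tdTom− cells the order was the same but for Klk15, which moved up to a place just above Klk1b27 but exceeded it in 4 of 8 libraries only.

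The genes lie in 1 cluster on the plus strand of chromosome 7 (GRCm38), spanning 296 kb from Klk15, whose start is 291.7 kb before that of Klk1, to Klk1 itself (chr7:44225437-44229617). Klk1b5, Klk1b4 and Klk1b3 start 9.0, 18.0 and 27.2 kb before Klk1, and Klk1b27, Klk1b26 and Klk1b1 start 173.1, 212.8 and 258.7 kb before it. From Klk1 to Klk1b3, the members at that end of the cluster, levels per kilobase declined with distance, whereas the more distant genes followed no such order. Klk1 was the only member overlapped by another annotated gene, Gm10109, which lies on the opposite strand, and the libraries were counted by strand.

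**Figure D2:**
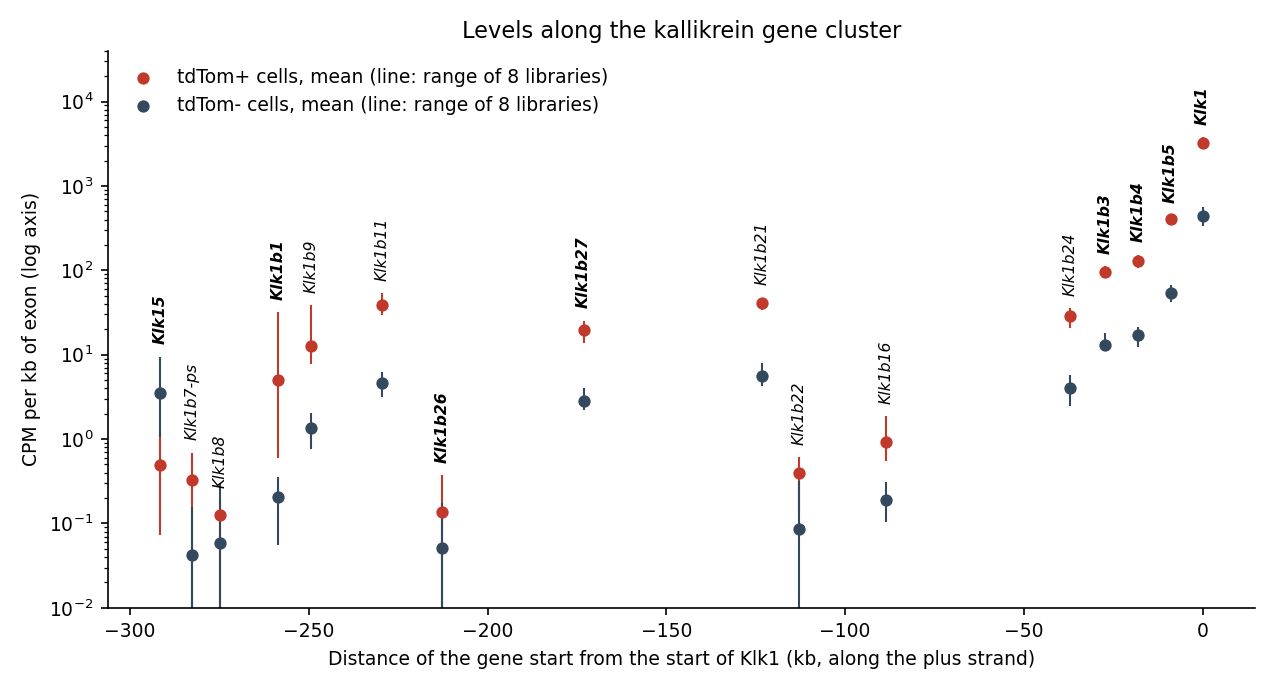
Level per kilobase of exon (CPM per kb, log axis) of the 16 kallikrein genes against the distance of each gene start from that of Klk1 in kb, as the mean of 8 libraries with a line from the lowest to the highest library, where a line that reaches the lower edge includes 0. Members are in bold, red points are tdTom+ cells and dark points are tdTom− cells; Klk1 at the right end is highest in both, and Klk15 at the left end is the gene with the dark point above the red.

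The coding sequences of the paralogs are close copies, which bears on how their reads were assigned. Against Klk1, Klk1b5 had 95.2% identical coding bases, Klk1b4 88.7%, Klk1b3 88.6%, Klk1b1 85.2%, Klk1b27 84.3% and Klk1b26 83.5%, whereas Klk15 had 54.5%. Reads were 50 bases long, and a read that fits several genes equally well was counted at the 1 place the aligner marked as primary. The 50-base stretch of Klk1 coding sequence that the most genes hold letter for letter is shown with its counterparts in the members that differ, to let the closeness be seen. It lies in exon 3 of Klk1 (GENCODE M21, plus strand, chr7:44228741-44228790) and is identical in Klk1b3, Klk1b4, Klk1b5 and Klk1b27, and also in Klk1b21 and Klk1b24. Capitals mark bases that differ from Klk1.
Klk1: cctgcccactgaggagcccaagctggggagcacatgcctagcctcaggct
Klk1b1: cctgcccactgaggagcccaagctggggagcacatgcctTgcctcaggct
Klk1b26: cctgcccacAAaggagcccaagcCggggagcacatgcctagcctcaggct

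The 50 coding bases that separate Klk1 best from the other Klk1 and Klk1b members lie in exon 5 (chr7:44229516-44229565), where the nearest stretch of any of them differs at 13 or more positions. They are shown because a read from this part of the transcript can be placed. Capitals again mark bases that differ from Klk1.
Klk1: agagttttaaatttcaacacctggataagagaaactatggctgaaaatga
Klk1b5: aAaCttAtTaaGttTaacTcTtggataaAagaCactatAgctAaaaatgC
Klk1b4: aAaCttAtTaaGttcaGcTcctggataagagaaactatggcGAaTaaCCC
Klk1b3: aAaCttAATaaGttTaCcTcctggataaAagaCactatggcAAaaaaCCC
Klk1b27: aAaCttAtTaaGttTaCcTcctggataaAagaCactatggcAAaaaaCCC
Klk1b1: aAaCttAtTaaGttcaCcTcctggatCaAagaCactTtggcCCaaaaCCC
Klk1b26: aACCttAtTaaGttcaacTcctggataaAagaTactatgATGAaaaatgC

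Of the 905 windows of 50 bases in the annotated Klk1 transcript compared, 648 (71.6%) occur in no other annotated gene. Klk1b5 held 170 of them letter for letter, Klk1b3 85, Klk1b4 62, Klk1b27 33 and Klk1b1 21, while Klk1b26 and Klk15 held none. Most windows of the Klk1b members were also their own, from 78.7% in Klk1b3 and Klk1b4 to 85.7% in Klk1b27, and among the other Klk1b genes with a Klk1 window the share ran from 66.1% in Klk1b24 to 89.9% in Klk1b16. All 796 windows of Klk15 were its own, and the nearest to any in Klk1 differed at 12 bases, so counts of Klk15 could not be exchanged with those of Klk1 by exact matches.

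Counts of Klk1b5, Klk1b4 and Klk1b3 stayed within a narrow range relative to those of Klk1 in all 16 libraries, and those of Klk1b27 varied more. For every 100 Klk1 counts there were 11.1 to 13.1 counts of Klk1b5 (median 12.2), 3.37 to 4.18 of Klk1b4 (median 3.76), 2.55 to 3.52 of Klk1b3 (median 2.99) and 0.463 to 0.767 of Klk1b27 (median 0.614). The shares of Klk1 and Klk1b5 differed between populations by less than their spread, the mean share of Klk1 in the counts of Klk1 and all Klk1b genes being 80.9% ± 0.50 in tdTom+ cells and 81.2% ± 0.78 in tdTom− cells (SD, n = 8). That of Klk1b5 was 9.93% ± 0.48 and 9.72% ± 0.26.

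Genes that hold more Klk1 windows mostly had higher ratios, but not in every case. Klk1b4 holds fewer of them than Klk1b3 and had the higher ratio, and Klk1b8 holds 20 but had a median of 0.00444 counts per 100 Klk1 counts, below the 0.0118 of Klk1b22, which holds 1. Across the 14 Klk1b genes, the number of Klk1 windows held and the median counts per 100 Klk1 counts had a Spearman rho of 0.97, a description over genes that share both libraries and ancestry. If every Klk1 window were divided evenly among the genes that hold it, 100 Klk1 counts would carry with them 8.10 counts at Klk1b5, 2.01 at Klk1b4, 3.27 at Klk1b3, 0.773 at Klk1b27 and 0.334 at Klk1b1. The observed medians were higher than these values for Klk1b5 and Klk1b4 and lower for Klk1b3, Klk1b27 and Klk1b1 (0.0377). For the Klk1b genes outside the members that hold a Klk1 window they were lower too, farthest for Klk1b8 (0.00444 against 0.678). How much of each paralog's count came from its own RNA and how much from Klk1 reads was not tested. With Klk1 and all Klk1b genes summed to 1 feature, the log2 fold change was 2.89, against 2.88 for Klk1 alone. Since Klk1 held on average 80.9% of the summed counts in tdTom+ cells and 81.2% in tdTom− cells, these values could differ little. They do not show how reads were assigned.

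**Figure D3:**
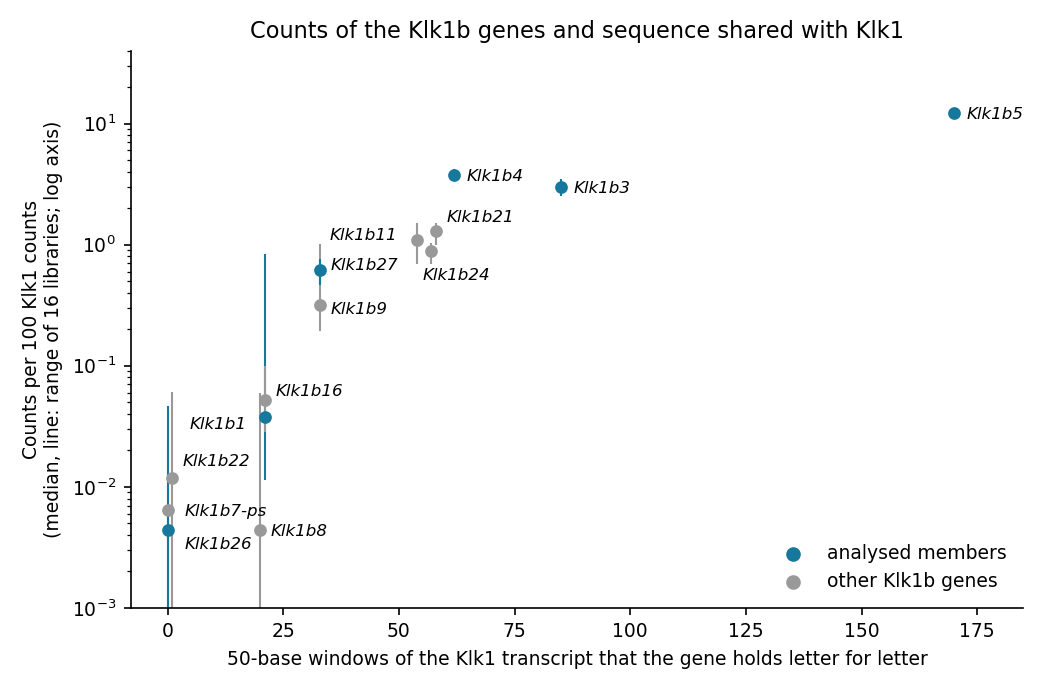
Counts per 100 Klk1 counts (log axis, median of 16 libraries with a line from lowest to highest, lines that reach the lower edge including 0) against the number of 50-base Klk1 windows each Klk1b gene holds letter for letter. Members are blue and other Klk1b genes grey; Klk1b5, with 170 windows and 12.2 counts, lies at the upper right, and the genes with 0 or 1 window lie below 0.02 counts.

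Klk1b1 departed from this pattern in a single library. In the tdTom+ cells of mouse 1 it had 494 counts (27.8 CPM), whereas in the other 7 tdTom+ libraries it had 12 to 38 counts (0.515 to 2.06 CPM), and in tdTom− cells 1 to 8 counts (0.0478 to 0.305 CPM). Mouse 1 was thus 13.5 times above the next library, mouse 2, although its own tdTom− library held only 6 counts. All tdTom+ libraries were nonetheless above all tdTom− libraries. The log2 fold change of 4.55 (SE 0.99) rested on this library and was 2.55 without mouse 1.

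Per 100 Klk1 counts, Klk1b1 stood at 0.843 in that library and at 0.0114 to 0.0926 in the other 15. Klk1b9, named as an epidermal growth factor-binding protein and sharing 43 windows with Klk1b1, was also highest there, at 33.4 CPM against 6.74 to 9.65 CPM in the other tdTom+ libraries, or 1.01 per 100 Klk1 counts against 0.194 to 0.360 elsewhere. Klk1b4 and Klk1b11 share 50 and 42 windows with Klk1b1. Per 100 Klk1 counts that library held 3.91 of Klk1b4 and 1.05 of Klk1b11, within their tdTom+ ranges (3.49 to 4.10 and 0.905 to 1.52). Klk1 was also highest in this library, at 3302 CPM, but was followed closely by mouse 2 at 3063 CPM. The part of shared reads in the values of Klk1b1 and Klk1b9 was not tested.

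Klk1b26, known as an epidermal growth factor-binding protein that also processes prorenin, was near the detection limit. It had 0 to 6 counts in tdTom+ libraries and 0 to 3 in tdTom− libraries, 19 and 7 counts in all. The tdTom+ level exceeded the tdTom− level in 6 of 8 mice, but the ranges overlapped, and with so few counts the difference was not tested. It held no Klk1 window exactly, though 14 Klk1 windows lay within 1 mismatch of it.

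Klk15, a kallikrein-related protease at the far end of the cluster, ran in the opposite direction. It had 1 to 17 counts in tdTom+ libraries (0.0563 to 0.868 CPM, median 0.342) and 16 to 134 counts in tdTom− libraries (0.812 to 7.23 CPM, median 2.28). It was lower in tdTom+ cells in 8 of 8 mice, by a ratio of 0.0694 in mouse 1 to 0.295 in mouse 3, although the highest tdTom+ library (mouse 5) slightly exceeded the lowest tdTom− library (mouse 1). The means were 0.380 ± 0.229 and 2.67 ± 2.0 CPM (SD, n = 8), a log2 fold change of -2.76 (SE 0.43). Mouse 5 had the highest level in both populations and mouse 1 the lowest.

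**Figure D4:**
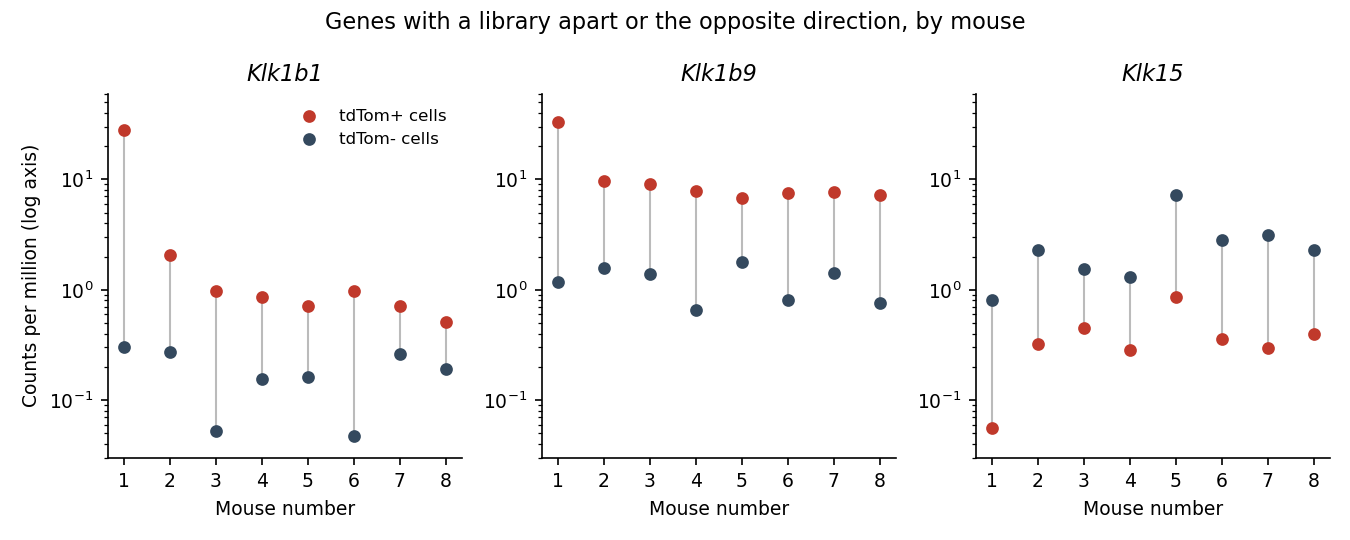
Level in CPM (log axis) of Klk1b1, Klk1b9 and Klk15 in each mouse, with tdTom+ cells in red, tdTom− cells in dark and a line joining both populations of a mouse. The tdTom+ library of mouse 1 stands apart for Klk1b1 (27.8 CPM) and Klk1b9 (33.4 CPM), and Klk15 is lower in tdTom+ cells of all 8 mice.

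Promoter sequence was compared because Klk15 and the Klk1b genes differed in direction. The promoters are shown for Klk1b5 and Klk1b4, as examples of the Klk1b genes, and for Klk15, as the 100 bases before the RefSeq start (GRCm38.p6, plus strand), at chr7:44216374-44216473, chr7:44207333-44207432 and chr7:43931575-43931674. Capitals mark TTTAAA or TATAAA, the AT-rich box near a start, and CATCTG, the reverse complement of the E-box CAGATG.
Klk1b5: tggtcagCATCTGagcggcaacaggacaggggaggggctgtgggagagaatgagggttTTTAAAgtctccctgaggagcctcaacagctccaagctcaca
Klk1b4: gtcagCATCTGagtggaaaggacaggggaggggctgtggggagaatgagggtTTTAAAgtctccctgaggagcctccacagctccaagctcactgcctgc
Klk15: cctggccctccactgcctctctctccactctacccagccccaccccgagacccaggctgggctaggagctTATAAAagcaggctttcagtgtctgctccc

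In the 250 bases before the RefSeq start, searched on both strands, TTTAAA was present in 6 of the 8 members (Klk1b1, Klk1b3, Klk1b4, Klk1b5, Klk1b26 and Klk1b27), against 12.1% of all 32851 RefSeq promoters. TATAAA was present in Klk15 alone (12.4% of all promoters). CAGATG was present in 7 of 8, all but Klk15 (14.4% of all promoters), CAGCTG in none (13.0%), and AGAACA in Klk1b3 alone (16.1%). The Klk1b promoters belong to genes of shared ancestry and are not independent, so no enrichment of a motif is read from these counts. Counted from the RefSeq start, CAGATG began at -95 to -53 in the Klk1b members but at -197 in Klk1. In Klk1b1 the bases gggcagggcttt lie just before the CATCTG, whereas in Klk1 they lie just before the RefSeq start, after the match at -197. By its place relative to these bases, the match in Klk1 is not the counterpart of that in Klk1b1. E-boxes of this kind are bound by ATOH1 and other basic helix-loop-helix factors, but a match is a description of letters. Aligned to the 250 bases before the RefSeq start of Klk1, those of the Klk1b members had 47.3% to 53.8% identical bases, and those of Klk15 had 49.3%. The RefSeq start of Klk1 lies 77 bases before the start in the deposited annotation, and a TTTAAA lies 26 bases before the latter. The start of Klk15 likewise lies 2096 bases before the deposited one, whereas for the Klk1b members the distance is 0 to 2 bases. The aligned stretches therefore need not cover the same part of each promoter, and no likeness between promoters is read from the identities.

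Variation between mice within the tdTom+ population was not used to choose the genes. Over the 8 tdTom+ libraries, log2 CPM of Klk1b3 (Pearson's r = 0.88, exact permutation p = 0.00900, adjusted over 6 relations p = 0.0278), Klk1b5 (r = 0.84, exact permutation p = 0.00925, adjusted p = 0.0278) and Klk1b4 (r = 0.81, exact permutation p = 0.0237, adjusted p = 0.0474) varied with that of Klk1. Spearman's rho was 0.55, 0.74 and 0.57 for these genes, with exact permutation p of 0.171, 0.0458 and 0.151 (adjusted p of 0.257, 0.208 and 0.257). Without mice 1 and 6, the libraries farthest from the median of Klk1, r was 0.37, 0.40 and -0.13, so the relations rested on those mice. Klk1b1 (r = 0.71, rho = 0.50), Klk1b27 (r = 0.23, rho = 0.26) and Klk15 (r = -0.58, rho = -0.69) did not pass, with adjusted exact permutation p of 0.102, 0.587 and 0.148 for r and 0.259, 0.536 and 0.208 for rho. The Klk1b genes may share reads with Klk1, and the part of such reads in these relations was not tested.

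Among 10684 genes outside the family with at least 100 counts in every tdTom+ library, those whose log2 CPM was most like that of Klk1 over the 8 tdTom+ libraries were Gpsm1 (r = 0.95), Pxmp4, Stard3, Bphl and Gm3222 (r = 0.93 each). Of these, Gpsm1 and Stard3 were higher in tdTom+ cells, Pxmp4 and Gm3222 were lower, and Bphl was not called (log2 fold change 0.10, adjusted p = 0.302). These genes were picked as the highest of 10684 values of r over only 8 libraries. How many unrelated genes would reach such values by chance was not tested, so no relation to Klk1 is read from them.

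Of the 8 other genes of the Klk1 group in the files 5 were tested, with the same limit of shared sequence, and all 5 were higher in tdTom+ cells by the edgeR test (25.5% of all genes were): Klk1b9 (log2 fold change 3.26, adjusted p = 8.72e-08), Klk1b11 (3.04, adjusted p = 1.49e-13), Klk1b21 (2.91, adjusted p = 7.20e-14), Klk1b24 (2.85, adjusted p = 2.17e-12) and Klk1b16 (2.25, adjusted p = 2.01e-06). Klk1b9 was at 11.1 ± 9.03 against 1.19 ± 0.412 CPM, Klk1b11 at 33.0 ± 6.24 against 4.04 ± 0.988, and Klk1b21 at 37.2 ± 4.52 against 5.0 ± 1.31 (SD, n = 8). Klk1b7-ps, Klk1b8 and Klk1b22 were not tested and had at most 10 counts in any library. By contrast none of the 11 other kallikrein-related peptidases, Klk4 to Klk14, was tested. Of these genes 8 had 0 counts in all 16 libraries, and their summed level was below 0.71 CPM in every library.

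In the kinin system, on which Klk1 acts, the substrate and the receptors were nearly absent. The kininogen Kng1 had 0 counts in tdTom+ cells and at most 1 in a tdTom− library, and Kng2 and both bradykinin receptors, Bdkrb1 and Bdkrb2, had 0 counts in all 16 libraries, which allows up to 0.182 CPM in the smallest library (3 counts, for counting error only). Of 13 tested genes of the list, most of them peptidases that cut kinins, 4 were higher, 6 were lower and 3 were not called, where 25.5% of all genes were higher and 25.5% lower. The median log2 fold change was -0.23 (0.00 over all genes tested). The higher genes were led by Xpnpep2 (log2 fold change 1.82, edgeR adjusted p = 1.30e-11), an aminopeptidase that inactivates bradykinin, Ace (1.22, adjusted p = 4.88e-07), angiotensin-converting enzyme, and the carboxypeptidase Cpd (1.19, adjusted p = 8.71e-12). Those lower were led by Cpb2 (-4.89, adjusted p = 1.13e-08), Cpn1 (-2.49, adjusted p = 2.72e-10) and Cpn2 (-2.29, adjusted p = 2.26e-05), all of them carboxypeptidases or a subunit of one. Ace was at 47.7 ± 6.79 CPM in tdTom+ cells and 20.6 ± 5.88 in tdTom− cells (SD, n = 8).

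Among inhibitors of serine proteases, 2 of 6 tested genes were higher, 2 were lower and 2 were not called (median log2 fold change -0.42), which is near the 25.5% of all genes called in each direction. Both higher genes were Kazal-type inhibitors. Spink4, a goblet cell product, was at 2921 ± 849 against 89.2 ± 40.6 CPM (log2 fold change 5.03, edgeR adjusted p = 2.47e-12), and Spink1, a trypsin inhibitor, was at 347 ± 151 against 54.0 ± 18.2 CPM (2.69, adjusted p = 1.34e-08). Serpine2 (-1.01, adjusted p = 3.23e-05), a serpin that binds thrombin, and Spint1 (-0.79, adjusted p = 4.78e-09), an inhibitor of matriptase, were lower. Serpina3c, a serpin known for binding tissue kallikrein, had at most 1 count in a library.

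Of 7 tested genes for proteins known as substrates or receptors of kallikreins, 6 were higher and 0 lower, against 25.5% of all genes in each direction, with a median log2 fold change of 1.44. Egf, the epidermal growth factor precursor, stood at 37.7 ± 4.41 CPM in tdTom+ cells and 2.26 ± 0.346 in tdTom− cells (log2 fold change 4.07, edgeR adjusted p = 1.06e-16), higher in 8 of 8 mice. The epithelial sodium channel subunits, which serine proteases activate by cleavage, followed with Scnn1b (3.17, adjusted p = 1.34e-11) and Scnn1g (1.99, adjusted p = 4.81e-07), at 26.6 ± 5.31 and 3.97 ± 1.13 CPM in tdTom+ cells. The protease-activated receptor F2rl1 was not called (0.08, adjusted p = 0.332).

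Of 9 other membrane or secreted serine proteases tested, 4 were higher and 5 were lower, against 25.5% of all genes in each direction. Hgfac, the activator of hepatocyte growth factor, was at 538 ± 48.7 CPM in tdTom+ cells and 65.0 ± 11.0 in tdTom− cells (log2 fold change 3.05, edgeR adjusted p = 1.46e-15), Hpn (hepsin) had a log2 fold change of 2.57 (adjusted p = 7.10e-13) and Prss8 (prostasin) of 0.96 (adjusted p = 9.25e-12). Prss30 was the most strongly lower (-4.74, adjusted p = 1.06e-16), followed by Prss23 (-0.83, adjusted p = 0.000511) and St14, matriptase (-0.59, adjusted p = 1.87e-08). The median log2 fold change of these 9 genes was -0.17.

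**Figure D5:**
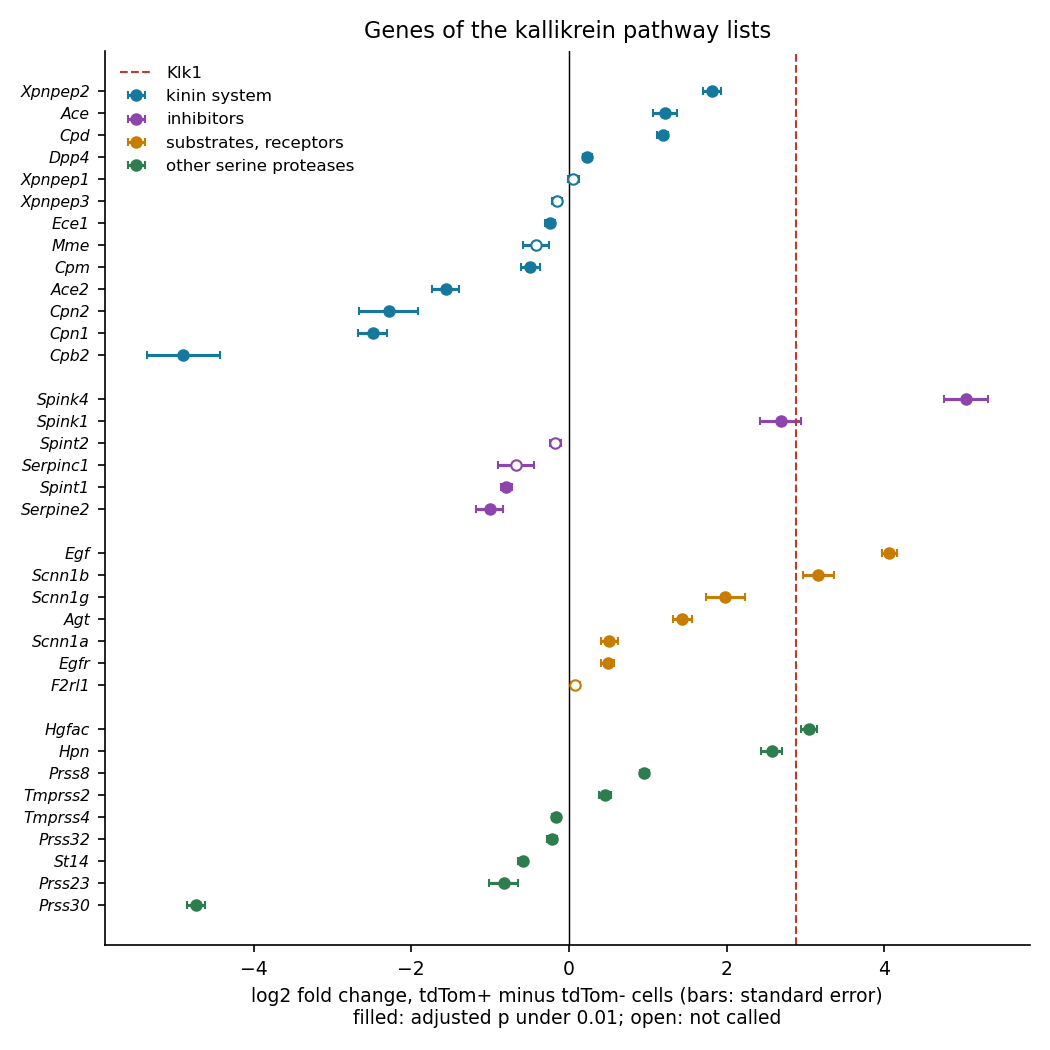
Log2 fold change (tdTom+ minus tdTom− cells, bars SE) of the tested genes in 4 pathway lists, filled where the edgeR adjusted p is below 0.01, with a dashed line at the value of Klk1 (2.88). Egf, Scnn1b, Spink4 and Hgfac lie to the right of that line, and Cpb2 and Prss30 lie farthest to the left.

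The tdTom− cells kept more of the kallikreins than of most goblet cell transcripts. In each mouse the Klk1 level in tdTom− cells was 9.90% to 17.7% of that in tdTom+ cells (median 14.2%), and that of Klk1b5 was 9.77% to 16.4% (median 13.6%). For Muc2, the main goblet cell mucin, it was 1.84% to 7.44% (median 3.61%), for Spdef 3.12% to 8.68% and for Atoh1 3.10% to 7.26%, each below Klk1 in 8 of 8 mice. Markers of deep crypt secretory cells went both ways. For Reg4 the median was 5.31% and for the receptor Kit 10.3%, both below Klk1 in 8 of 8 mice, whereas for the Notch ligands Dll1 and Dll4 the medians were 16.1% and 16.9% (12.4% to 24.4% and 12.6% to 24.1%), each below Klk1 in 3 of 8 mice. Which cells of the tdTom− population held the Klk1 transcripts was not tested.

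Markers of other tissues were low or absent, apart from Cela1, but some immune and endothelial markers had counts in every library. Smr3a and Aqp5, salivary gland transcripts, were at 0 counts in all libraries. The pancreatic and salivary enzymes Amy1, Amy2a5, Cpa1, Pnlip and Prss2 had at most 7 counts in a library, and only Cela1 of that list was tested (log2 fold change -0.55, edgeR adjusted p = 0.00131). The summed level of 7 immune markers was 5.94 to 12.4 CPM in tdTom+ cells and 10.3 to 34.7 in tdTom− cells. That of 6 stromal and endothelial markers was 3.65 to 5.59 and 6.04 to 8.26 CPM. Ptprc, Itgam and Lyz2 had up to 183, 304 and 361 counts in a tdTom− library, whereas Cd3e and Cd79a had at most 9. Ptprc (log2 fold change -1.52, edgeR adjusted p = 2.28e-06) and Pecam1 (-1.58, adjusted p = 5.23e-09) were lower in tdTom+ cells, as was Acta2 (-0.41, adjusted p = 0.00317). Itgam and Lyz2 were not called.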

How the data were processed

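Live EpCAM+tdTom+ and EpCAM+tdTom− colonic cells of 8 mice were profiled by stranded mRNA sequencing with 50-base single-end reads. Per the labels and file headers, the authors aligned reads to GRCm38 with TopHat2 2.1.1 and deposited raw counts per gene from featureCounts (Subread 1.5.2 in the submitters' processing notes, 1.5.0-p1 in the file headers), on exons, by strand and from primary alignments only, so that a read matching several paralogs is counted at 1 of them. Small intestinal and 9S/T-A libraries were not analysed here.

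Symbols were assigned to 44585 of 45513 genes from GENCODE M21. After edgeR's filterByExpr, all remaining genes were fitted together (edgeR 4.0.16, R 4.3.3) with TMM library sizes and population as the only term, by the quasi-likelihood test, and genes with a Benjamini-Hochberg adjusted p below 0.01 were called. CPM used TMM library sizes and, for correlations, log2 CPM a prior count of 2. DESeq2 1.42.0, other filters and normalizations, each mouse left out and a term for mouse were alternatives. Simulated counts with the sizes of these libraries gave back 96 of 100 genes changed by a log2 fold change of 1 and 100 of 100 changed by 2, with 1 false call. Only these genes differed among the 15731 fitted, and genes with few counts were not among them. The rates therefore do not carry over to genes with few counts or to data where many genes differ. The 2 libraries of a mouse are paired because they come from the same animal, and their deviations from the population means correlated at 0.223 to 0.408, against -0.262 to 0.168 between different mice.

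The kallikreins and all gene lists were chosen with earlier results of these data known. Beside them, the text names every tested gene of the Klk1 group, up to 3 called genes with the largest change in each direction of each pathway list, cell type markers, and the 5 genes most like Klk1 over tdTom+ libraries. Genes at 0 counts or without a call that are named were added after their values were seen. Windows of 50 bases were compared by exact match against all GENCODE M21 transcripts, and coding sequences by global alignment with Biopython 1.88. Promoters came from RefSeq (GRCm38.p6). Protein sequences were not used here, and some genes of the lists are not reported here and enter no list count.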

Additional observations from a re-analysis of the deposited data

Results flagged for a closer look

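In each population the gap between the highest or lowest of the 8 libraries and its neighbor was set against the whole range, for the 8 kallikreins and the 65 other named genes. Of 146 such sets 21 had a library far apart at the 95% level of Dixon's test, where chance gives about 1 in 20 for normally distributed values. The CPM were not log-transformed, some rest on a few counts and the sets share libraries, so no excess over chance is read from the 21. Among the kallikreins 3 sets were flagged. Klk1b1 in the tdTom+ cells of mouse 1 stood at 27.8 CPM, with the next library at 2.06. Klk15 in the tdTom− cells of mouse 5 stood at 7.23 CPM, with the next at 3.13. Klk1b26 in the tdTom− cells of mouse 1 stood at 0.152 CPM, which is 3 counts.

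Of the paralogs outside the members, Klk1b9 was apart in the tdTom+ cells of mouse 1 (33.4 CPM, next 9.65) and Klk1b11 in those of mouse 2 (46.6 CPM, next 34.9). Among the pathway genes, mouse 2 was highest for Xpnpep2 (7.38 CPM) and Cpn1 (37.8 CPM) in tdTom− cells and for Cpb2 (0.488 CPM) in tdTom+ cells, and mouse 5 was highest for Scnn1g (2.05 CPM) in tdTom− cells.

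Among goblet cell markers, mouse 7 was apart for Clca1 in tdTom+ (43570 CPM) and tdTom− cells (3684 CPM) and for Fcgbp in tdTom+ cells (31780 CPM), and mouse 6 for Agr2 (767 CPM) and Spdef (33.4 CPM) in tdTom− cells. Lyz1 was apart in mouse 3 in tdTom+ cells (20.4 CPM) and in mouse 2 in tdTom− cells (1.90 CPM), Kit in mouse 1 in tdTom+ cells (395 CPM), and Aqp8 was lowest in mouse 4 in tdTom− cells (322 CPM). The immune markers Itgam (tdTom+ 7.70 CPM, tdTom− 8.68 CPM) and Lyz2 (19.6 CPM in tdTom− cells) were highest in mouse 2.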

How the results depend on the processing

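The log2 fold changes of Klk1, Klk1b3, Klk1b4, Klk1b5, Klk1b27 and Klk15 stayed within the spread between mice under every alternative that gave a value, and those of Klk1 without each mouse in turn lay between 2.82 and 2.94. That of Klk1b1 was 2.35 with DESeq2, which replaces counts far from the others, 2.10 in mice 5 to 8 only, and 2.55 to 4.79 without each mouse in turn. With mouse as a replicate block it was 3.76, and the block gave 4494 genes higher and 4574 lower against 4032 and 4042 without it, 15 rather than 13 genes of the pathway lists lower, and of the calls on named genes it changed only that of Lyz2, which then passed. In mice 1 to 3 only, 2546 genes were higher and 2559 lower, from fewer samples. With only the members in the denominator the share of Klk1 was 83.5%. Without the 2 libraries farthest from the median of Klk1, the correlation with Klk1 was 0.37 for Klk1b3, 0.40 for Klk1b5 and -0.13 for Klk1b4. Pou2f3, not called, had a log2 fold change of -0.069 to 0.17 without each mouse in turn (-0.019 without mouse 1) and -0.32 in mice 5 to 8 only. Among the other named genes Gcg was no longer called with DESeq2 or without any 1 of mice 1, 3, 5, 6, 7 and 8, Acta2 without mouse 3, 5 or 7, and Neurog3, Alox5ap, Cela1 and Pxmp4 in a subset of mice, while Lyz2 passed with DESeq2, without a filter and without mouse 2. The cause of these changes was not tested. Klk1b1 and Klk15 had no value with at least 10 counts required in every library. Depth limits statements on Klk1b26 and on genes at 0 counts.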

Other observations

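By a criterion chosen after the values of Klk1b1 were seen, genes with at least 1 CPM in a library and at least 3 times the next library of that population were counted. The tdTom+ library of mouse 1 held 4 such genes of 15841 tested, Klk1b1 (13.5 times), Gm15564 (6.35 times), Mir6236 (4.34 times) and Klk1b9 (3.46 times). The other tdTom+ libraries held 0 to 5, none of them a kallikrein.

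The labels give no sex for a mouse. Summed counts of the Y-linked genes Ddx3y, Eif2s3y and Uty were 1813 to 2138 in the libraries of mice 1 and 2 and 7 to 24 in those of the other 6 mice. Klk1b1 in tdTom+ cells was 27.8 CPM in mouse 1, 2.06 CPM in mouse 2 and 0.515 to 0.974 CPM in the others. This was not tested.

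Levels of the same kallikrein in the 2 populations of a mouse, compared after the data were seen over 7 genes and 8 mice, showed no relation past adjustment. For Klk15, the highest, Pearson's r was 0.83 (exact permutation p = 0.0265, adjusted p = 0.186) and Spearman's rho 0.55 (exact permutation p = 0.171, adjusted p = 1), and r was -0.14 without mice 1 and 5. For Klk1 r was -0.19 (exact permutation p = 0.653, adjusted p = 0.914).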
